A study of Rattus norvegicus with 20 samples.

Results

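The comparison described here is that of liver RNA from male Wistar rats, an outbred laboratory strain, given 5% less food for 1 month with that of control rats of the same duration. Its members are the 4 arrays labelled in that way, of 20 arrays in the series: 2 arrays of the 5% pool and 2 arrays of the control pool. Each pool held the RNA of 5 rats, so each side is 1 biological sample measured on 2 arrays. Per the labels' protocols, restriction began at 6 weeks of age, the control rats had no restriction, and the livers of all rats were taken after 16 h of fasting. The 1 month rats are labelled as 9 weeks old and the 1 week rats as 6 weeks old, so the durations also differ in labelled age. The rest of the series holds pools with 10, 20 and 30% restriction for 1 month (6 arrays) and the same 5 diets for 1 week (10 arrays), of which the 5% pool and its control (4 arrays) are used below. Pooling hides the differences between rats, and the time of day of sampling is not given in the labels.

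The liver stores fuel after a meal and releases it in fasting. In the fed state insulin and the transcription factor Srebp1c raise the genes of fatty acid synthesis, while Srebp2 raises those of cholesterol synthesis when cell cholesterol is low. In fasting the nuclear receptor Ppar alpha raises the genes that carry fatty acids into mitochondria and burn them. A circadian clock runs in hepatocytes, in which Clock and Bmal1 drive the Per, Cry and Nr1d genes that in turn hold Clock and Bmal1 back, and in rodents the phase of the liver clock follows the time of feeding.

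Differences are in log2 units of normalized signal, 5% pool minus control pool, so that 1 unit is a 2-fold higher signal. With 1 pool a side, a probe set is counted by a rule of size: both arrays of 1 pool above both of the other, and pool means at least 1 log2 unit apart. Arrays of a counted probe set therefore never overlap between the 2 pools, so a lack of overlap adds nothing to the count. By this rule 536 of 9520 probe sets tested (5.63%) differed, 313 (3.29%) higher and 223 (2.34%) lower in the 5% pool. Among the 7055 genes named, 211 (2.99%) were higher and 153 (2.17%) lower, and the median difference of all named genes was 0.01.

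The only test comes from a limma fit over all 10 pools, in which the 10 to 30% pools, taken to lie on a line, supply the spread. It assumes that the lone 5% and control pools vary like those pools, and its p-values say nothing of how rats, or repeated pools of a diet, would vary. At a Benjamini-Hochberg adjusted p under 0.05, 115 probe sets (1.21%) rose and 43 (0.452%) fell, and 1412 (14.8%) had an unadjusted p under 0.05. Among named genes 85 (1.2%) rose and 34 (0.482%) fell. Of the probe sets counted by size, 95 higher and 36 lower ones also passed this test. The number that passed dropped to 4 when the fit took no account of how the spread depends on signal, and to 26 without the 20% pool of 1 week. Each adjusted p below is from this fit, and each error is its standard error (SE). "Rose" and "fell" are used of genes that passed it, and other differences are given as values.

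The deposited median signal was 17.5 and 30.3 units on the 5% arrays and 15.3 and 22.6 units on the control arrays, so the arrays were put on 1 scale. After quantile normalization the 2 arrays of the 5% pool correlated at 0.967 and those of the control pool at 0.951, and the 5% arrays were each closest to an array of the 10% pool of 1 month (0.968 and 0.969). A 2-fold or larger gap between arrays of the same pool was seen for 351 probe sets (3.69%) in the 5% pool and for 630 (6.62%) in the control pool. Of the 536 probe sets counted by size, 343 (10.8% of 3174) lay in the dim part of the probe sets tested, against 87 (2.74% of 3174) in the bright part. The 3' to 5' signal ratio of Gapdh, a measure of RNA integrity, was 1.60 and 1.62 in the 5% pool and 1.58 and 1.46 in the control pool, and that of actin was 3.42 and 2.75 in the 5% pool and 2.72 and 2.73 in the control pool. For a gene with a pool under the lowest mean signal tested, 11.7 units, the fitted log2 difference is no bound. The fold is then given from pool means raised to that level. Where both arrays of that pool lay under the level, it is written as at least. Elsewhere it is written as a raised fold and is not claimed as a bound, because the pool mean was raised and not each array.

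**Figure D1:**
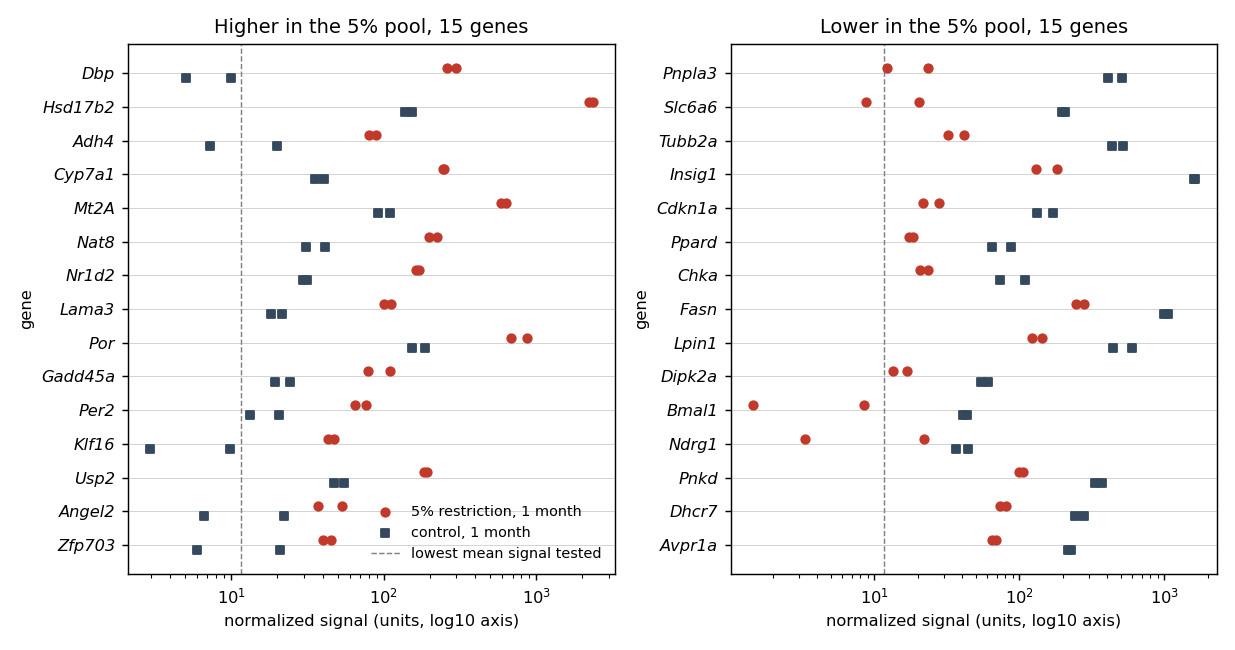
Normalized signal (units, log10 axis) of the 15 genes with the largest higher and the 15 with the largest lower signal in the 5% pool (circles) against the control pool (squares), each point 1 array. By the rule of size no gene has overlapping arrays. Hsd17b2 is at 2344 and 2220 units in the 5% pool against 154 and 137 units in the control pool.

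List counts stand beside 2.99% higher and 2.17% lower by size over all named genes, and a list with few counted members can be near that share. Of the 41 gene lists described, the circadian clock held the most members past the rule of size. Of 13 clock genes measured, 10 were higher and 2 lower in the 5% pool, with a median difference of 1.68, and 7 rose. The higher ones include the repressors Per1, Per2, Cry2, Nr1d1 and Nr1d2 and the output factors Dbp, Hlf and Tef, and the lower ones are the activators Bmal1 and Clock. The promoters of Tef and Bhlhe40, 2 of the counted genes, are shown because they carry the letters CACGTG, the core E-box to which Clock and Bmal1 bind. They run from 250 bases before to 50 after the gene start, from RefSeq, build GRCr8: Tef at chr7:115206577-115206876 and Bhlhe40 at chr4:143174200-143174499, both on the plus strand. The capitals mark the motif, which begins at -198 in Tef and at -220 in Bhlhe40 relative to the start.
Tef: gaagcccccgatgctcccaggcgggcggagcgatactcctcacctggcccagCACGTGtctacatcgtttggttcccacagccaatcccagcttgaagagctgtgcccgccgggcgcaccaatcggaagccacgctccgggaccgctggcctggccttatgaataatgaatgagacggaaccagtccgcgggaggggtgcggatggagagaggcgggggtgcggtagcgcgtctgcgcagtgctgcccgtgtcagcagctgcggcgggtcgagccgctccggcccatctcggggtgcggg
Bhlhe40: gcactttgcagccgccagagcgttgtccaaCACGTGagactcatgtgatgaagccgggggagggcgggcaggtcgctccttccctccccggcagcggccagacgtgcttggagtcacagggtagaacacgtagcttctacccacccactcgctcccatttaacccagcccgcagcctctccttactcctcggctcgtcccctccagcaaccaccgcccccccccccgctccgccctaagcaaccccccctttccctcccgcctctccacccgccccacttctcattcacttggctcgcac
The motif reads the same on both strands. It was found in these 2 of 11 counted clock genes with a promoter in the table, and in 1826 of all 27457 rat promoters of that length (6.65%). A match is a description of letters and not a bound site.

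Dbp, a transcription factor that drives daily rhythms of liver enzymes, had 261 and 297 units in the 5% pool and 9.97 and 5.07 units in the control pool. Both control arrays lay under the lowest level tested, so the signal was at least 23.9-fold higher at 5%. Its log2 difference was 5.29 ± 0.67 (adjusted p = 0.012), the largest of all named genes past the rule. Nr1d2 and Nr1d1 encode Rev-erb beta and alpha, which repress Bmal1. Nr1d2 had 171 and 164 units at 5% and 31.6 and 29.8 units in controls, a rise of 2.45 ± 0.25 (adjusted p = 0.00681), and its other probe sets differed by 2.42 and 3.18. Nr1d1 had 68.2 and 68.7 units at 5% and 17.6 and 21.6 units in controls, a rise of 1.81 ± 0.31 (adjusted p = 0.0307). For both receptors the arrays of the 5% pool lay well above those of the control pool.

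Per2, which with Cry proteins blocks Clock and Bmal1, had 76.4 and 64.7 units in the 5% pool and 13.2 and 20.7 units in the control pool (2.09 ± 0.28, adjusted p = 0.0134). Cry2 had 59.96 and 47.9 units at 5% and 24.7 and 9.03 units in controls (1.84 ± 0.22, adjusted p = 0.0106), with control arrays far apart but both below the 5% arrays. Usp2, a ubiquitin protease of the clock, had 194 and 183 units at 5% and 47.0 and 54.8 units in controls (1.89 ± 0.26, adjusted p = 0.0134). A dimmer Usp2 probe set differed by 0.96 and did not pass the rule of size. Hlf, a factor of the same family as Dbp, had 62.98 and 63.98 units at 5% and 17.9 and 21.8 units in controls (1.68 ± 0.27, adjusted p = 0.026).

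Bmal1 ran the other way. It had 8.45 and 1.45 units in the 5% pool and 40.7 and 43.7 units in the control pool, at least 3.62-fold lower at 5%, with an adjusted p of 0.059. Both 5% arrays lay below the control arrays but also below the level at which signals were tested. Clock had 33.7 and 28.1 units at 5% and 62.2 and 62.7 units in controls, a difference of -1.02 ± 0.32 (adjusted p = 0.173), and its other probe set differed by -0.39. Per1 (1.44), Tef (1.27) and Bhlhe40 (1.06), a repressor of the loop, were past the rule of size but not the test, with adjusted p of 0.219, 0.343 and 0.152. The control pools of Per1 and Tef lay under the level tested. Per1 was at least 1.81-fold higher and Tef was higher by a raised fold of 1.43. Nfil3, which opposes Dbp on the same sites, had 41.5 and 46.3 units at 5% against 44.2 and 48.9 units in controls, and its arrays overlapped. The part of the time of sampling in these differences was not tested.

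**Figure D2:**
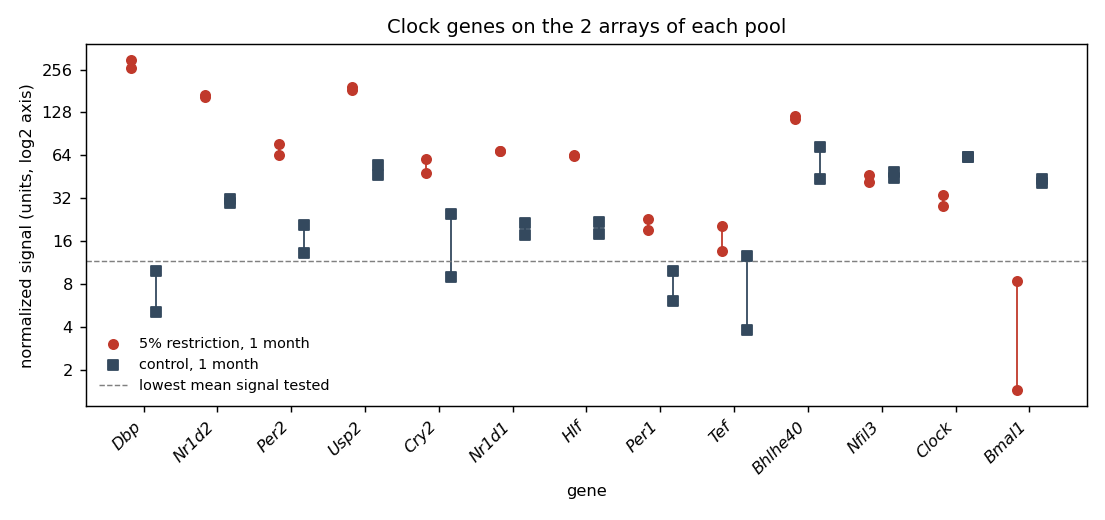
Normalized signal (units, log2 axis) of the 13 clock genes on the 2 arrays of the 5% pool (circles, left of each pair) and of the control pool (squares). The line joins the arrays of a pool and the dashed line is the lowest mean signal tested. Dbp is at 261 and 297 units at 5% and under the dashed line in controls, while Bmal1 is under it at 5%.

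Of 25 genes of fatty acid and triglyceride synthesis measured, 0 were higher and 5 lower in the 5% pool by the rule of size (Pnpla3, Fasn, Lpin1, Acly and Gpam), with a median difference of -0.54, and 3 of them fell. Pnpla3, a lipid droplet enzyme induced by insulin and Srebp1c, had 23.5 and 12.2 units in the 5% pool and 513 and 411 units in the control pool. That is 27.1-fold lower at 5%, a fall of 4.76 on the log2 scale (SE 0.91, adjusted p = 0.0402), and the largest fall among named genes. Acly, which makes cytosolic acetyl-CoA from citrate, had 385 and 435 units at 5% and 1120 and 1320 units in controls (-1.57 ± 0.28, adjusted p = 0.0323). Gpam, which starts glycerolipid synthesis, had 17.5 and 25.5 units at 5% and 60.3 and 43.7 units in controls (-1.28 ± 0.26, adjusted p = 0.0466). In each of these the 5% arrays lay below both control arrays, as the rule of size requires.

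Fasn, the fatty acid synthase, had 245 and 280 units in the 5% pool and 1052 and 995 units in the control pool. Its difference of -1.97 ± 0.62 did not pass the test (adjusted p = 0.173), and its other probe set gave -1.63. Lpin1, a phosphatidate phosphatase and coactivator of fasting genes, had 123 and 144 units at 5% and 594 and 442 units in controls (-1.94 ± 0.70, adjusted p = 0.226). Srebf1, which encodes Srebp1, had 326 and 374 units at 5% against 670 and 643 units in controls. It missed the rule of size narrowly with -0.91 ± 0.23 (adjusted p = 0.098), and its other probe set gave -0.97. Elovl5 (-0.73), Me1 (-0.77) and Aacs (-0.80), which elongate fatty acids, supply NADPH and activate acetoacetate for lipid synthesis, had differences of like sign that passed neither measure.

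All 20 genes measured of cholesterol synthesis and uptake were below 0, from -0.12 (Ebp) to -3.38 (Insig1), with a median of -0.45, on the quantile scale. By the rule of size 5 of them were lower, and 4 fell. Insig1 holds the Srebp proteins in the endoplasmic reticulum and is itself an Srebp target. It had 183 and 130 units in the 5% pool and 1632 and 1588 units in the control pool, 10.4-fold lower at 5% with arrays far apart, and fell by 3.38 on the log2 scale (SE 0.25, adjusted p = 0.00132). Enzymes of the pathway differed less. Dhcr7, of the last step to cholesterol, had 81.4 and 73.9 units at 5% and 277 and 243 units in controls (-1.74 ± 0.35, adjusted p = 0.0459). Pmvk, of the mevalonate steps, had 52.8 and 50.6 units at 5% and 146 and 139 units in controls (-1.46 ± 0.26, adjusted p = 0.0334).

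Fdps, the farnesyl diphosphate synthase, had 398 and 390 units in the 5% pool and 894 and 794 units in the control pool (-1.10 ± 0.20, adjusted p = 0.0339). Insig2, a close relative of Insig1, had 273 and 250 units at 5% and 616 and 578 units in controls (-1.19 ± 0.37, adjusted p = 0.173). Lss gave -0.99, Cyp51 -0.75, Fdft1 -0.35 and Idi1 -0.25, and these enzymes passed neither measure. Srebf2, which encodes Srebp2, gave -0.75 (adjusted p = 0.192). With signals as deposited, where the median of all named genes itself was 0.52, 2 of the 20 were past the rule and the list's median relative to all genes was -0.51. The letters TCACNCCAC, a form of the sterol element searched on both strands, were in none of the 18 promoters of these genes in the table (0 of 18) and in 310 of all 27457 (1.13%).

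In the list of mitochondrial fatty acid oxidation and ketone synthesis, 6 of 24 genes measured were higher and 0 lower by size, with a median of 0.20, and 6 rose. Cpt1a, which admits long-chain fatty acids to mitochondria, had 1018 and 1153 units in the 5% pool and 519 and 503 units in the control pool (1.08 ± 0.14, adjusted p = 0.0134), and its other probe set gave 1.43. Cpt2, its partner on the inner membrane, had 402 and 427 units at 5% and 171 and 164 units in controls (1.31 ± 0.17, adjusted p = 0.0128). Both genes had a narrow spread within each pool.

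Ech1 and Eci1, auxiliary enzymes for unsaturated fatty acids, both rose. Ech1 had 711 and 660 units in the 5% pool and 280 and 272 units in the control pool (1.31 ± 0.15, adjusted p = 0.00837), and Eci1 had 825 and 718 units at 5% and 379 and 338 units in controls (1.10 ± 0.14, adjusted p = 0.0106). Decr1, of the same branch, rose by 0.62 ± 0.12 (adjusted p = 0.038), under the size limit. Ppara, the receptor itself, had 20.0 and 21.8 units at 5% and 2.55 and 4.01 units in controls. That is at least 1.79-fold higher, from control arrays under the level tested, with an adjusted p of 0.133. Fgf21, the hepatokine induced by Ppar alpha, had 72.7 and 68.2 units at 5% and 29.9 and 15.2 units in controls (1.72 ± 0.25, adjusted p = 0.0161). Pdk4, a fasting gene that spares glucose, pointed the other way with -0.80 (adjusted p = 0.374).

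In the list of peroxisomal and microsomal oxidation 2 of 15 were higher and 0 lower (median 0.30), and both rose. Acot4, a peroxisomal thioesterase, had 93.7 and 83.9 units in the 5% pool and 27.9 and 36.5 units in the control pool (1.47 ± 0.22, adjusted p = 0.0207). Crat, the carnitine acetyltransferase, had 44.3 and 41.4 units at 5% and 16.4 and 20.4 units in controls (1.23 ± 0.24, adjusted p = 0.0431). By the rule of size, neither gene's arrays overlapped. Of 13 genes of lipid droplets and fatty acid handling only Acsl3, an acyl-CoA synthetase of droplets, was counted, at 13.4 and 11.5 units at 5% and 35.2 and 28.5 units in controls (-1.35, adjusted p = 0.168).

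In the list of bile acid synthesis and transport 2 of 21 genes were higher and 0 lower (median 0.18), and both rose. The shares over all named genes were 2.99% higher and 2.17% lower. Cyp7a1, which sets the rate of bile acid production from cholesterol, had 245 and 249 units in the 5% pool and 40.9 and 35.6 units in the control pool, 6.47-fold higher at 5% (2.69 ± 0.43, adjusted p = 0.0238). Abcg5, a sterol exporter, had 56.5 and 42.8 units at 5% and 29.9 and 10.5 units in controls (1.47 ± 0.25, adjusted p = 0.0307). Cyp7a1 is thus well separated, while the Abcg5 control arrays differ between themselves by more than the pools' nearest arrays do.

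Among enzymes that handle steroids and foreign compounds a few genes differed strongly and most did not. Hsd17b2, which inactivates estradiol and testosterone, had 2344 and 2220 units in the 5% pool and 154 and 137 units in the control pool. This 15.7-fold rise (3.97 ± 0.34, adjusted p = 0.00315) was the only higher count among 17 steroid-inactivating and sex-dependent enzymes, with Cyp2c12, a female-predominant P450 in rats, the only lower one (27.7 and 30.7 units at 5% against 76.0 and 101 units in controls, adjusted p = 0.149). Akr1c14, a steroid reductase, rose by 0.73 ± 0.14 (adjusted p = 0.044) without passing the rule of size.

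Of 41 phase I genes 2 were higher and 2 lower (median 0.16), and 5 rose and 1 fell. Over all named genes 2.99% were higher and 2.17% lower by size, and 1.2% rose and 0.482% fell. Por, the reductase that feeds electrons to all microsomal P450 enzymes, had 875 and 688 units in the 5% pool and 188 and 152 units in the control pool (2.20 ± 0.38, adjusted p = 0.0307), and its other probe set gave 2.16. Adh4, an alcohol dehydrogenase, had 80.5 and 88.8 units at 5% and 20.1 and 7.32 units in controls (2.80 ± 0.33, adjusted p = 0.00972). As the rule of size requires, in both genes every 5% array was above the control arrays. Adh1c (0.82), Aldh1a1 (0.82) and Cyp2e1 (0.57) rose by less than the size limit, with adjusted p of 0.0307, 0.0307 and 0.0428. Ahr, the dioxin receptor, had 5.99 and 3.52 units at 5% and 26.6 and 30.2 units in controls, at least 2.43-fold lower, and fell (adjusted p = 0.0307).

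Of 26 genes of phase II conjugation 3 were higher and 1 lower (median 0.02), and 3 rose. Nat8, an acetyltransferase of cysteine conjugates, had 225 and 199 units in the 5% pool and 30.8 and 41.2 units in the control pool (2.57 ± 0.31, adjusted p = 0.0106). Sult2a6, a hydroxysteroid sulfotransferase, had 66.7 and 92.2 units at 5% and 30.8 and 27.8 units in controls (1.42 ± 0.27, adjusted p = 0.0382). Ugt2b1, a glucuronosyltransferase, had 395 and 393 units at 5% and 197 and 153 units in controls (1.18 ± 0.15, adjusted p = 0.0106). The P450, Sult2a and Ugt2b genes have close relatives, and probes of these families may also bind RNA of a relative.

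Genes of hormone signalling and growth arrest were counted in both directions. Of 27 genes of growth hormone and insulin signalling 3 were higher and 4 lower (median -0.03), and only Igfbp1 fell. Igfbp1, which insulin represses and which binds Igf1, had 73.5 and 60.6 units in the 5% pool and 248 and 168 units in the control pool (-1.61 ± 0.18, adjusted p = 0.00837). Igf1 had 1793 and 2150 units at 5% and 2086 and 2099 units in controls (-0.09 ± 0.10, adjusted p = 0.714), so its arrays overlapped. Stat5a (-1.05), Socs2 (-1.11) and Irs3 (-1.34), of the receptor pathways, and on the other side Irs2 (1.49), Socs3 (1.44) and Cish (1.34), passed the rule of size with adjusted p between 0.0757 and 0.487. The control pools of Irs2 and Socs3 lay under the level tested, each with 1 array above it, and their raised folds were 2.70 and 1.64.

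Of 24 genes of cell cycle and growth arrest 3 were higher and 4 lower (median -0.01), with 1 rise and 2 falls. Cdkn1a, the p21 inhibitor of cyclin kinases, had 28.0 and 21.8 units in the 5% pool and 132 and 169 units in the control pool (-2.60 ± 0.40, adjusted p = 0.0216), and its dimmer probe set gave -3.81. Gadd45a, a stress sensor that halts growth, had 78.7 and 110 units at 5% and 24.2 and 19.5 units in controls (2.10 ± 0.23, adjusted p = 0.00794). Btg1, an antiproliferative gene, had 675 and 709 units at 5% and 1411 and 1435 units in controls (-1.04 ± 0.14, adjusted p = 0.0134). The p21 and Gadd45a inhibitors of growth thus ran in opposite directions.

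Mt2A and Mt1, the metallothioneins described here, rose. Mt2A, a zinc-binding protein induced by metals and glucocorticoid, had 634 and 586 units in the 5% pool and 110 and 92.1 units in the control pool (2.60 ± 0.41, adjusted p = 0.0232). Mt1 had 29.4 and 21.4 units at 5% and 5.42 and 5.65 units in controls, at least 2.15-fold higher (adjusted p = 0.0307). These were 2 of 3 higher and 2 lower genes among 13 of the metallothionein and glucocorticoid list (median -0.0047), the others being Per1 (higher) and Igfbp1 and Sgk1 (lower).

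In carbohydrate metabolism Gckr, a regulator of glucose use in the liver, had 159 and 158 units in the 5% pool and 399 and 504 units in the control pool (-1.50 ± 0.28, adjusted p = 0.038). Gys2, the liver glycogen synthase, had 174 and 173 units at 5% and 83.1 and 63.0 units in controls (1.26 ± 0.18, adjusted p = 0.0153). These and Pgd, of the pentose phosphate pathway (-1.04, adjusted p = 0.123), were the 3 counted of 20 glycolysis and glycogen genes, whose median was -0.17. Ugp2 and Slc2a2, the makers of UDP-glucose and the glucose carrier of hepatocytes, rose by 0.91 and 0.66 (adjusted p = 0.0382 and 0.0459). Of 11 genes of gluconeogenesis only Pck2 was counted (1.11, adjusted p = 0.174), with 28.6 and 31.2 units at 5% and 6.79 and 28.0 units in controls. Its difference rests on 1 control array under the level tested. Pck1, the cytosolic key enzyme, had 2123 and 1940 units at 5% and 2241 and 2140 units in controls.

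In the methionine and one-carbon list 0 of 15 were higher and 4 lower (median -0.02), and 2 fell. Slc6a6, the taurine transporter, had 8.81 and 20.2 units in the 5% pool and 196 and 205 units in the control pool (-3.91 ± 0.47, adjusted p = 0.0106). Chka, which phosphorylates choline, had 23.3 and 20.6 units at 5% and 73.0 and 110 units in controls (-2.03 ± 0.36, adjusted p = 0.0318). Bhmt, which remethylates homocysteine, and Cth, which makes cysteine, gave -1.06 and -1.31 without passing the test (adjusted p = 0.0787 and 0.209). Of 42 genes of amino acid breakdown 1 was higher and 3 lower (median 0.02) and none passed the test (0), beside 2.99% higher and 2.17% lower of all named genes. Sds, of serine breakdown, gave 1.65, and Kynu, Gldc and Acmsd gave -1.49, -1.23 and -1.15. In the list of the amino acid response, 2 of 22 were higher, Fgf21 and Psat1 (1.04, adjusted p = 0.475).

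Of the other genes with the largest differences, Lama3, a laminin chain, had 100 and 112 units in the 5% pool and 21.7 and 18.4 units in the control pool (2.41 ± 0.39, adjusted p = 0.0262). Angel2 had 37.1 and 53.0 units at 5% and 6.69 and 22.1 units in controls (1.87 ± 0.33, adjusted p = 0.0307). Klf16 and Zfp703, zinc finger genes, were higher by at least 3.89-fold and by a raised fold of 3.65, with adjusted p of 0.0673 and 0.0973. Tubb2a, a beta tubulin, had 41.6 and 32.01 units at 5% and 435 and 519 units in controls, a 13.0-fold lower signal that missed the threshold (adjusted p = 0.0653). Of 14 tubulin and cytoskeleton genes it was the only one past the rule of size, with a list median of -0.33, and Actg1, the gamma actin, fell by 0.82 on the log2 scale (adjusted p = 0.0415) without passing it.

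Ppard, the Ppar delta receptor, had 17.5 and 18.6 units in the 5% pool and 87.9 and 64.8 units in the control pool (-2.07 ± 0.32, adjusted p = 0.0216). Avpr1a, the vasopressin receptor of hepatocytes, had 68.8 and 64.9 units at 5% and 226 and 216 units in controls (-1.72 ± 0.30, adjusted p = 0.0307). By the rule of size, the arrays of both receptors did not overlap between pools. Dipk2a fell by 1.93 on the log2 scale (adjusted p = 0.043). Ndrg1 fell and was lower by a raised fold of 3.44, with 5% arrays at 21.9 and 3.31 units against 36.3 and 44.2 units in controls (adjusted p = 0.0153). Pnkd differed by -1.76 (adjusted p = 0.0673), and its other probe set, at -0.46, did not pass the rule.

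Several lists held no gene past the rule of size, beside 2.99% higher and 2.17% lower over all named genes. At that share a short list would often hold none, so these counts are not read as a lack of change. No member was counted among 39 cytosolic ribosomal proteins, 29 proteasome subunits, 28 autophagy and lysosome genes, 28 acute phase and complement genes, 26 endoplasmic reticulum chaperones, 25 interferon and antigen genes, 25 antioxidant genes, 17 apolipoprotein genes, 16 heat shock proteins, 15 iron and heme genes and 7 urea cycle genes (0 in each). Their medians lay between -0.18 (proteasome) and 0.25 (urea cycle), beside 0.01 for all named genes. In the antioxidant list Gclm, a glutathione synthesis subunit, rose by 0.80 ± 0.16 (adjusted p = 0.0429). Hamp, the iron hormone hepcidin, had 1336 and 1237 units in the 5% pool and 2306 and 2039 units in the control pool (-0.75, adjusted p = 0.68). Of 50 genes of oxidative phosphorylation only Cox5a was counted (1.04, adjusted p = 0.197).

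**Figure D3:**
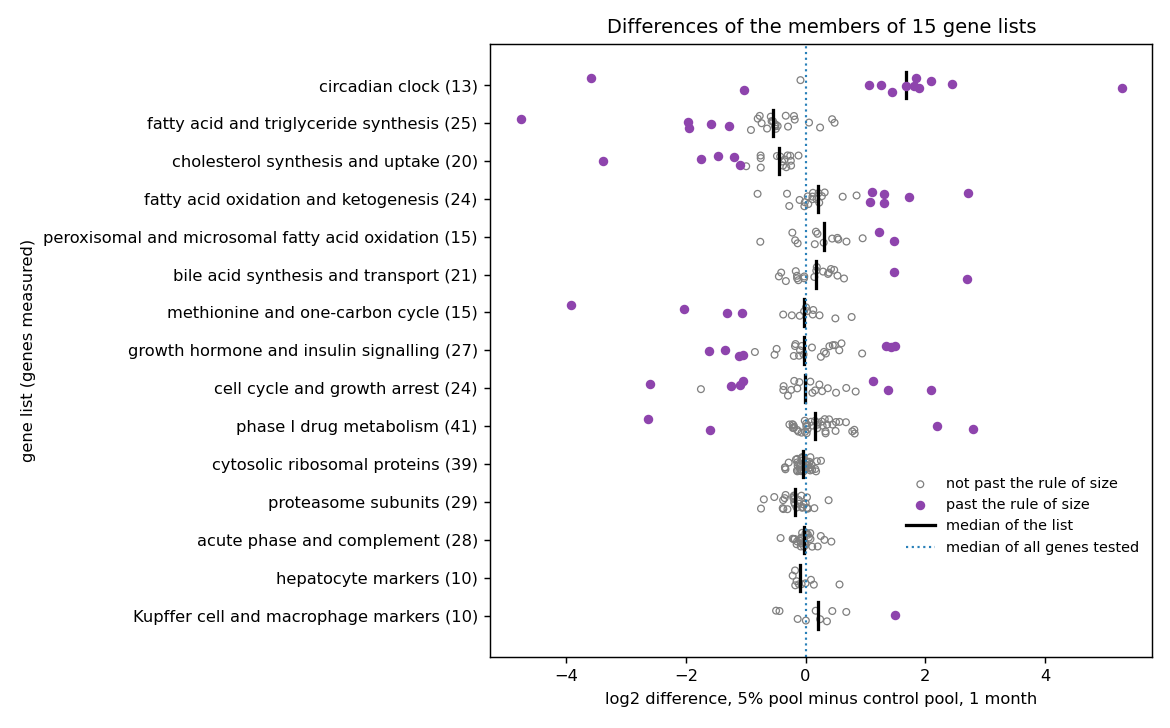
Log2 difference of each measured gene (5% pool minus control pool, 1 month) in 15 gene lists, with the number measured in brackets. Filled points are past the rule of size, black bars are list medians (clock 1.68, fatty acid synthesis -0.54, cholesterol -0.45) and the dotted line is the median of all named genes (0.01).

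The tissue label was checked with markers. Hepatocyte markers were bright, with a summed signal of 41511 and 41501 units over 10 genes in the 5% pool and 42828 and 42386 units in the control pool, and 0 of them were past the rule of size. Quantile normalization gives the brightest ranks equal values, and Alb had 10755.9 units on all 4 arrays. These sums are thus partly set by it and do not compare hepatocyte RNA between the pools. Markers of other cells were measured less fully: 10 of 15 for macrophages, 13 of 16 for stellate cells, 9 of 15 for endothelium, 4 of 9 for red cells, 3 of 10 for bile ducts, 1 of 16 for lymphocytes and 0 of 10 for neutrophils. Their summed signals were 992 and 956 units at 5% and 1003 and 1043 units in controls for macrophages, and 798 and 742 units at 5% and 633 and 727 units in controls for stellate cells. For endothelium they were 459 and 451 units at 5% and 362 and 378 units in controls, with 6 of 9 above 0 and 0 counted. For red cells they were 1105 and 1063 units at 5% and 1280 and 1266 units in controls. Only Aif1 of macrophages (at least 1.78-fold, other probe set -0.63) and Dcn of stellate cells (1.00) were counted. In bulk RNA fewer cells of a type and less RNA per cell cannot be told apart, and the part of these cells in the differences above was not tested.

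The 5% pool was set beside the 10, 20 and 30% pools of 1 month, which share the control pool. Of the 536 probe sets counted, 253 (47.2%) had all 3 of those pools nearer the 5% pool than the control pool, 183 of them higher and 70 lower. In 58 all 3 were nearer the control pool, 6 of them higher and 52 lower, and 225 were mixed. Over all 9520 probe sets tested, 3247 had all 3 nearer the 5% pool and 1475 had all 3 nearer the control pool. Among the 536 counted, the control pool was the most extreme of all 10 pools for 215 higher and 130 lower probe sets, and the 5% pool for 66 and 105. The rule of size picks probe sets in which the control and 5% pools lie far apart, so these counts are partly set by that choice. No such count over all 9520 probe sets is given beside them, so they do not show that the control pool or the 5% pool stands apart.

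Clock and lipid genes show the first pattern in part. Dbp averaged 7.11 units in the control pool and 278, 241, 172 and 33.5 units with 5, 10, 20 and 30% restriction for 1 month. Nr1d1 had pool means of 19.5, 68.4, 64.04, 24.3 and 13.1 units in the same order, so that its 30% pool lay below the control pool. Insig1 had 1610.1, 154, 305, 464 and 429 units, with its lowest pool at 5%. Cyp7a1 had 38.2, 247, 302, 247 and 192 units, high in all restricted pools. Pnpla3 (459, 16.9, 4.70, 1.25 and 3.43 units) and Fasn (1023, 262, 103, 143 and 74.2 units) were lower still beyond 5%, though the Pnpla3 values beyond 5% are under the level tested.

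A few genes at 5% also differed from the pools with more restriction. In the same fit the 5% pool was compared with the 10 to 30% pools of 1 month at their mean, a comparison added after the profiles had been seen, and 3 probe sets passed, 1 higher (0.0105%) and 2 lower (0.021%), with 590 (6.2%) at an unadjusted p under 0.05. The lower ones were Igfbp1 and Slc2a1 (0.0283% of named genes), and 0 named genes were higher. Igfbp1 had pool means of 204 units in controls and 66.7, 141, 198 and 342 units at 5, 10, 20 and 30%, so that it was lowest at 5% and differed from the higher levels by -1.67 ± 0.15 (adjusted p = 0.0129). Slc2a1, the glucose carrier Glut1, differed from them by -2.61 ± 0.30 (adjusted p = 0.0363). Its 5% pool lay under the level tested, and its raised fold was 2.52 lower than at 10 to 30%. The higher one was not assigned to 1 gene (several or none listed) and differed by 0.95 (adjusted p = 0.0363).

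Fgf21 had 21.3 units in controls and 70.5, 28.2, 22.5 and 18.5 units at 5, 10, 20 and 30%. Its difference from the higher levels was 1.63 ± 0.20 with an adjusted p of 0.051, just over the threshold. Lpin1 had 512, 133, 430, 432 and 332 units in the same order, with its 1 month pools other than 5% nearer the control pool. This difference did not pass (-1.57 ± 0.57, adjusted p = 0.703). Over all 9520 probe sets tested, 1475 had all 3 higher levels nearer the control pool. Among the 364 named genes past the rule of size this held for 39, and in 29 of these 39 a pool lay under the level tested. Psat1 and Gadd45g, higher at 5%, were among the 10 with no pool under that level.

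**Figure D4:**
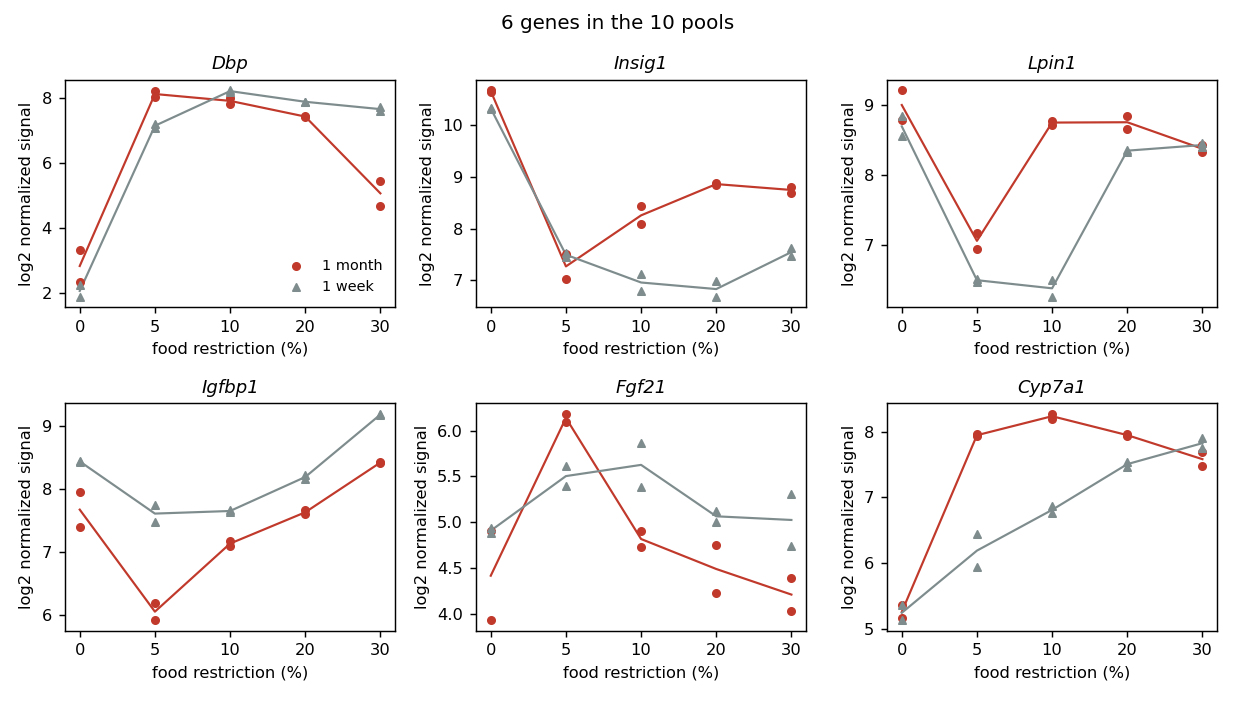
Log2 normalized signal of 6 genes in the 10 pools by food restriction (%), with 1 month as circles and 1 week as triangles. Each point is 1 array and lines join pool means. Among the 1 month pools Igfbp1 and Lpin1 are lowest and Fgf21 highest at 5%, while Cyp7a1 is high in all restricted pools of 1 month.

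The 5% difference after 1 month was compared with that after 1 week, for which a separate control pool was used. At 1 week 176 probe sets (1.85%) were higher and 185 (1.94%) lower by the same rule. Of these 27 were higher at both durations (8.63% of those at 1 month, 15.3% of those at 1 week) and 28 lower at both (12.6% and 15.1%), while 19 were higher at 1 month and lower at 1 week and 15 the reverse. In the fit 0 probe sets passed for the difference between durations (limma, lowest adjusted p 0.147), with 1037 (10.9%) at an unadjusted p under 0.05. A difference that misses this threshold does not show that the durations act alike.

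Dbp differed by 5.29 at 1 month and 5.08 at 1 week, or by 4.58 and 3.60 with its control pools raised to the level tested, and Hsd17b2 by 3.97 and 4.15. Insig1 (-3.38 and -2.82), Pnpla3 (-4.76 and -2.91), Cdkn1a (-2.60 and -3.67), Lpin1 (-1.94 and -2.20) and Mt2A (2.60 and 2.45) were likewise apart from controls at both durations in the same direction, with the 1 week 5% pool of Cdkn1a under the level tested (-3.57 when raised). Other genes were far from controls at 1 month with small values at 1 week: Gadd45a gave 2.10 and 0.10, Lama3 2.41 and 0.14, Gckr -1.50 and 0.03, Gys2 1.26 and 0.15 and Ndrg1 -2.24 and 0.04. For each of these the test of the difference between durations did not pass (adjusted p from 0.19 to 0.254). The clock list had 10 higher and 2 lower members at 1 month, against 6 and 2 at 1 week, and the fatty acid synthesis list had 0 and 5 at each duration.

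**Figure D5:**
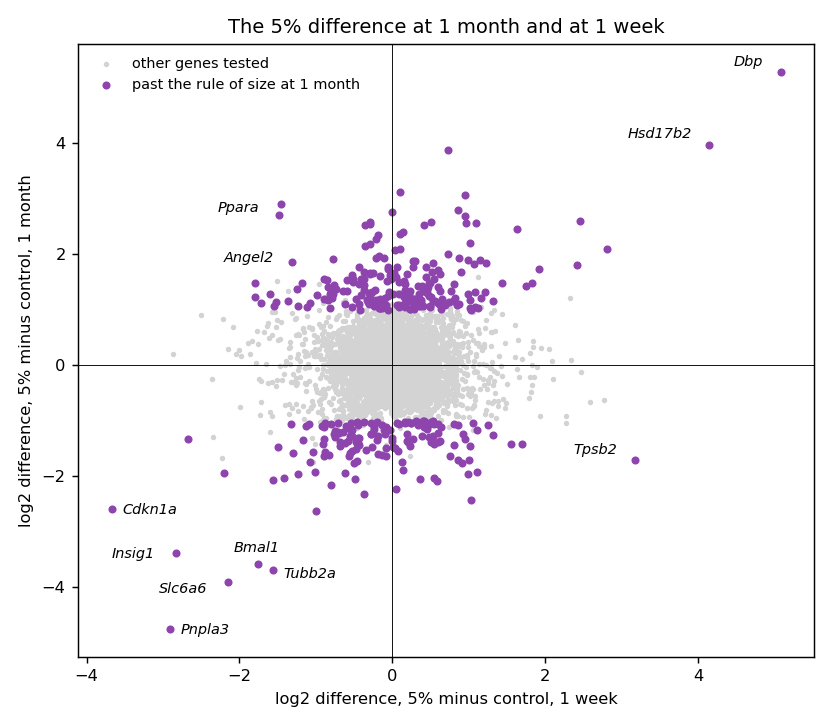
Log2 difference of each named gene, 5% pool minus control pool, at 1 month (vertical) and at 1 week (horizontal). Filled points are past the rule of size at 1 month. Dbp and Hsd17b2 lie high and Pnpla3, Insig1 and Cdkn1a low on both axes, while Ppara, Angel2 and Tpsb2 have opposite signs.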

How the data were processed

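Liver RNA pools were hybridised to Affymetrix GeneChips, and the deposited values are MAS5 intensity values on a linear scale, as the submitters' processing notes state. The sources used here do not give the MAS5 version or scaling target. From these, 32 zeros were replaced by the lowest value above 0 on the same array, log2 was taken, 57 control probe sets were left out, and the 20 arrays were quantile normalized. The upper 60% by mean signal were kept (9520 of 15866 probe sets). A gene is its brightest probe set, named from the platform annotation: 8120 had 1 gene, 245 several and 1155 none listed.

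The 2 arrays of a pool were averaged, giving 10 pools and n = 1 per diet and duration. The arrays are technical repeats, so the lack of repeated pools limits what the comparison can show. The fit used limma 3.58.1 in R 4.3.3 with a trend of the prior variance: the 5% and control pools of each duration had terms of their own, and the 10 to 30% pools shared a mean per duration and 1 slope (3 residual degrees of freedom). P-values were Benjamini-Hochberg adjusted over all 9520 probe sets. The fit was tested on simulated data for the 1 month comparison: of 50 probe sets changed by each log2 amount, 40 were called at -3, 18 at -1, 13 at 1 and 38 at 3. There were 6 false calls among the unchanged ones of 9520. The simulated pools of a probe set shared 1 mean and had the residual spread of the fit. It therefore cannot show whether the real 5% and control pools vary like the 10 to 30% pools.

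Named genes are the 15 largest differences in each direction past the rule of size, with values under the lowest level tested raised to it; up to 4 members per list past the rule with the largest differences, or 2 where none passed; the 5 smallest p in each direction for the difference between durations; and fixed genes of the pathways. Other genes named were chosen after their values were seen. The members, lists and tests were chosen with earlier results of these data known. Some of the fixed genes are not reported here. Alternatives concerned scaling, the filter on dim probe sets, the size limit, the control pools used, arrays and pools left out, and the terms of the fit.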

Additional observations from a re-analysis of the deposited data

Results flagged for a closer look

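Of the named genes, 4 were past the rule of size in opposite directions at the 2 durations, and the difference between durations passed the test for none of them (limma, adjusted p 0.173 to 0.242). Angel2 differed by 1.87 (5% minus control) at 1 month and by -1.31 at 1 week. Ppara differed by 2.71 at 1 month, where its control arrays had 2.55 and 4.01 units against 20.0 and 21.8 units at 5%, and by -1.48 at 1 week, where the 5% pool averaged 4.54 units and the control pool 12.7 units. With values raised to the lowest level tested, Ppara differed by 0.84 at 1 month and -0.12 at 1 week, past the rule at neither duration. Ccn3, a secreted matricellular protein, differed by -1.71 at 1 month (12.5 and 10.3 units at 5%, 34.8 and 39.5 units in controls, lower by a raised fold of 3.18) and by 1.01 at 1 week. Tpsb2, a mast cell tryptase, differed by -1.71 at 1 month (4.61 and 20.7 units at 5%, 40.4 and 25.1 units in controls, lower by a raised fold of 2.73). It differed by 3.18 at 1 week, or by 1.23 there with its 1 week control pool, at 3.03 units, raised to that level. Of these, Ppara, Ccn3 and Tpsb2 had a pool under the lowest level tested at 1 month.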

How the results depend on the processing

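The count by the rule of size (536) was 1017 with signals as deposited (938 higher and 79 lower, against 313 and 223, with the median of all named genes at 0.52), 609 with median centring (405 and 204), 2097 with no filter on dim probe sets, 193 in the upper 40%, 330 with low signals raised to the level tested, 857 to 882 with 1 array per pool, 188 at a log2 limit of 1.5, 1569 at 1.5-fold and 289 against both control pools. In the brightest part alone, a limit chosen after seeing the data, it was 87. Probe sets with the 10 to 30% pools of 1 month all nearer 5% (253) were 551 as deposited, 575 with no filter and 128 in the upper 40%. Memberships of the lists past the rule (76) were 115 as deposited (100 higher and 15 lower). The list medians relative to all genes were 1.60 (clock), -0.53 (fatty acid synthesis) and -0.51 (cholesterol) as deposited.

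The count of the limma fit (158) was 960 as deposited (915 and 45), 281 with median centring (241 and 40), 4 with no variance trend, 75 with no slope, 317 with a slope for each duration, 88 to 89 with 1 array per pool, and 26 to 225 with 1 pool left out, the lowest without the 20% pool of 1 week and 100 without that of 1 month. Of 45 named genes that passed, 7 passed in all fits but 1, which for 6 of them was the fit with no variance trend, and 0 passed in all. For the difference between durations (0) it was 433 as deposited, 2 with a slope for each duration, 0 to 1 with 1 array per pool and 0 to 2 with 1 pool left out. For 5% against 10 to 30% (3) it was 43 as deposited, 6 with median centring, 7 with a slope for each duration, 0 with no slope, 0 with no variance trend, 2 with 1 array per pool and 0 to 3 with 1 pool left out. The causes were not tested. Of the named genes past the rule of size, 0 changed sign in any alternative for it; of all 115 named genes, 12 changed sign as deposited, 5 with median centring and 2 to 3 with 1 array per pool. By the rule, 14 of 115 left and 12 joined the rule as deposited, 6 left and 5 joined with median centring, and 8 left with low signals raised. No paired analysis was possible because the number in a title names an array of a pool, not an animal. The labels do not state whether it also marks a batch shared between pools, and such a batch was not tested.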

Other observations

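Of 26 solute carriers of the hepatocyte measured, 1 was higher (Slc25a30) and 1 lower (Slc6a6) past the rule of size, with a median of 0.37. Among all named genes 2.99% were higher and 2.17% lower. Slc25a30, a mitochondrial carrier, had 334 and 265 units in the 5% pool and 106 and 92.2 units in the control pool (1.59 ± 0.41, adjusted p = 0.104). Bcar3, a signalling adaptor, had 24.6 and 29.0 units in the 5% pool and 6.22 and 0.528 units in the control pool, at least 2.29-fold higher (adjusted p = 0.00681). Bcar3 was, with Mt1 and 2 probe sets not assigned to 1 gene (several or none listed), among the 4 that passed the fit with no variance trend. Among genes with the smallest p for the difference between durations, Pdlim3 fell at 1 month (3.53 and 15.8 units in the 5% pool against 22.7 and 28.4 units in the control pool, lower by a raised fold of 2.18, adjusted p = 0.0415) and differed by 0.91 at 1 week. Glis2 and Kcnh3 differed by -0.65 and -0.77 at 1 month and by 1.39 and 0.97 at 1 week, and Farsa and Lenep by 1.52 and 0.68 at 1 month and by -1.51 and -1.52 at 1 week, with adjusted p of 0.19 for each difference between durations. Farsa had its 1 month control and 1 week 5% pools under the level tested, and with these raised it differed by 1.44 and -0.78.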
